A study of Mus musculus with 12 samples.

Results

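TRAJ30, TRAJ28, TRAJ27, TRAJ26, TRAJ24, TRAJ23 and TRAJ22 are 7 neighbouring joining (J) segments in the 3′ part of the mouse T cell receptor alpha locus, Tcra. They were chosen by name, as the run of deposited columns from Traj30 to Traj22, with earlier results of these data known. They make up 7 of the 43 Traj columns in every table. The series asked how control of RAG expression in double positive (DP) thymocytes shapes the Tcra repertoire. Tcra transcripts were amplified from sorted thymocytes by template-switch RACE, a method that copies the whole variable end of a transcript from a primer in the constant segment Trac. Each of the 12 deposited tables gives the fraction of transcripts that joined each Trav (variable) segment to each Traj segment.

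The groups were DPASEKO (KO) and wild type (WT), each with 2 libraries from steady state, 2 from 24 h and 2 from 48 h. All mice were 4 to 6 weeks old, and all donors of both genotypes carried TcrdCreER, a tamoxifen-inducible Cre at the Tcrd gene, together with the Cre-dependent green reporter Rosa26ZsG. The genotype field gives that reporter as Rosa26ZsG/+ and the strain field gives it as Rosa26ZsG/ZsG. The background was C57BL/6J, with Tcra-Tcrd loci of strain 129 origin that came with the TcrdCreER allele. The KO animals were homozygous for the DPASEKO allele. The labels do not describe that allele. In the field, DPASE is the name of a regulatory element near Rag1 and Rag2, the genes of the RAG recombinase, that is active in DP thymocytes. Cells were CD3e-negative DP thymocytes, sampled before selection. For the later samplings, taken 24 h or 48 h after an injection of 1 mg tamoxifen, only cells carrying the ZsGreen label were sorted, whereas the steady-state libraries came from the sorted population as a whole. The labels do not say whether the 2 libraries of a group came from different animals, so p-values reflect library-to-library spread only, and part of it may be technical.

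A T cell receptor alpha chain is made by joining 1 of many Trav segments to 1 of many Traj segments with the RAG recombinase. The Trav array lies upstream of the Traj array, and the first joins on an allele tend to use the Trav segments nearest to the Traj array (proximal) and the Traj segments farthest from Trac (5′). Further rounds on the same allele remove the first join and tend to use more distal Trav and more 3′ Traj segments, until selection or cell death ends the process. How far along the Traj array the joins of a population reach is therefore read in the field as a measure of how many rounds its alleles have gone through.

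On chromosome 14 of GRCm38 the 7 segments lie on the plus strand between 54189866 and 54197307, a stretch of 7.442 kb in an array of 60.622 kb, with 22 Traj columns upstream and 14 downstream. TRAJ30 lies 30.597 kb and TRAJ22 lies 23.214 kb upstream of Trac. TRAJ31 ends 1.914 kb before the stretch and TRAJ21 begins 1.482 kb after it. All 7 are annotated as TR_J_gene, a coding J segment. Traj29 and Traj25 are annotated in the same stretch but are not columns of the tables. The germline coding sequences follow because the identity of a J segment in these tables is its sequence. They come from the GENCODE M21 annotation of GRCm38, which is C57BL/6J, and the strain 129 alleles of these mice may differ from them. The 12 capitals in each are the codons of the Phe-Gly-X-Gly motif that forms the conserved core of a J segment.
TRAJ30: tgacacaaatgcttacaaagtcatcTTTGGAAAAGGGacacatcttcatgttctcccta
TRAJ28: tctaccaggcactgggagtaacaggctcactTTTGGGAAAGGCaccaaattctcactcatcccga
TRAJ27: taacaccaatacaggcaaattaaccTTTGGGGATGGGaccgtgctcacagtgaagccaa
TRAJ26: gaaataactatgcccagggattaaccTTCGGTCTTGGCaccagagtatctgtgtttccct
TRAJ24: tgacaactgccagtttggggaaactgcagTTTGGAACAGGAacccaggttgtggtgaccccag
TRAJ23: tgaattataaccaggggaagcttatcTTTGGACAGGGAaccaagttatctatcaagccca
TRAJ22: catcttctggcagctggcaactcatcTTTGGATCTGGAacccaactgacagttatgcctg

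Each of the 7 holds the motif once, as do 40 of the 43 Traj columns (93.0%). Their lengths ran from 59 to 65 bases (median 60), against 57 to 66 bases (median 61) over all 43 columns. The stretch before the motif, which a join trims and which ends up in the antigen-contacting loop of the receptor, ran from 25 bases in TRAJ30 and TRAJ27 to 31 bases in TRAJ28. GC content ran from 39.0% to 54.0% (median 47.5%), against a median of 47.6% over all columns. TRAJ30 had the lowest GC content of all 43.

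The tables give fractions and no read counts, so the depth of each library is unknown and no counting interval can be given. Every value below is a share, the summed fraction of a Traj column divided by the total of its own table, in percent. Shares add to a fixed total, so a lower share does not tell fewer joins of that segment from more joins of others. In these bulk libraries fewer cells with a join and less Tcra RNA per cell cannot be told apart. The fractions of 8 tables added up to 0.995 to 0.998. The other 4, which are the second KO and the second WT library of 24 h and of 48 h, added up to 1.97 to 1.99. The smallest share in those 4 tables was 0.00401 to 0.00937%, against 0.000336 to 0.000853% in the 8 first named, and 46.7 to 72.0% of the Trav-Traj pairs of the 7 segments were listed at 0, against 1.63 to 15.2%. The invariant pair of NKT cells, TRAV11 with TRAJ18, made up at most 0.0462% of a table, and the pair of MAIT cells, TRAV1 with TRAJ33, at most 0.0503%. The tables hold Tcra segments only, so neither the DPASEKO allele nor the DP phenotype could be checked in them.

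The 7 segments differed in level among themselves, with the same segments at the top and the bottom in most groups. TRAJ26 had the highest share of the 7 in every group except WT at 24 h, where TRAJ30 stood above it. TRAJ24 had the lowest share in every group except WT at 48 h, where TRAJ28 stood below it. At steady state TRAJ26 averaged 3.08 ± 0.222% in KO libraries and 3.20 ± 0.167% in WT libraries (SD, n = 2 each), which placed it at position 14 of 43 in KO and at position 3 in WT. TRAJ24 averaged 0.633 ± 0.0261% in KO libraries and 0.858 ± 0.0113% in WT libraries, at positions 41 and 43. Within the steady-state order only TRAJ27 and TRAJ30 overlapped between their libraries, in KO and in WT alike. At 24 h, 4 of the 6 neighbouring pairs in the order overlapped in each genotype, and at 48 h 2 pairs overlapped in KO and 3 in WT. Of the joins to these 7 segments, TRAJ26 took 21.4 to 30.6% over the 12 libraries, TRAJ30 16.6 to 24.7%, TRAJ27 15.9 to 21.1%, TRAJ22 12.5 to 18.5% and TRAJ23 7.89 to 13.2%. TRAJ28 took 4.14 to 7.07% and TRAJ24 3.51 to 6.49%.

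**Figure D1:**
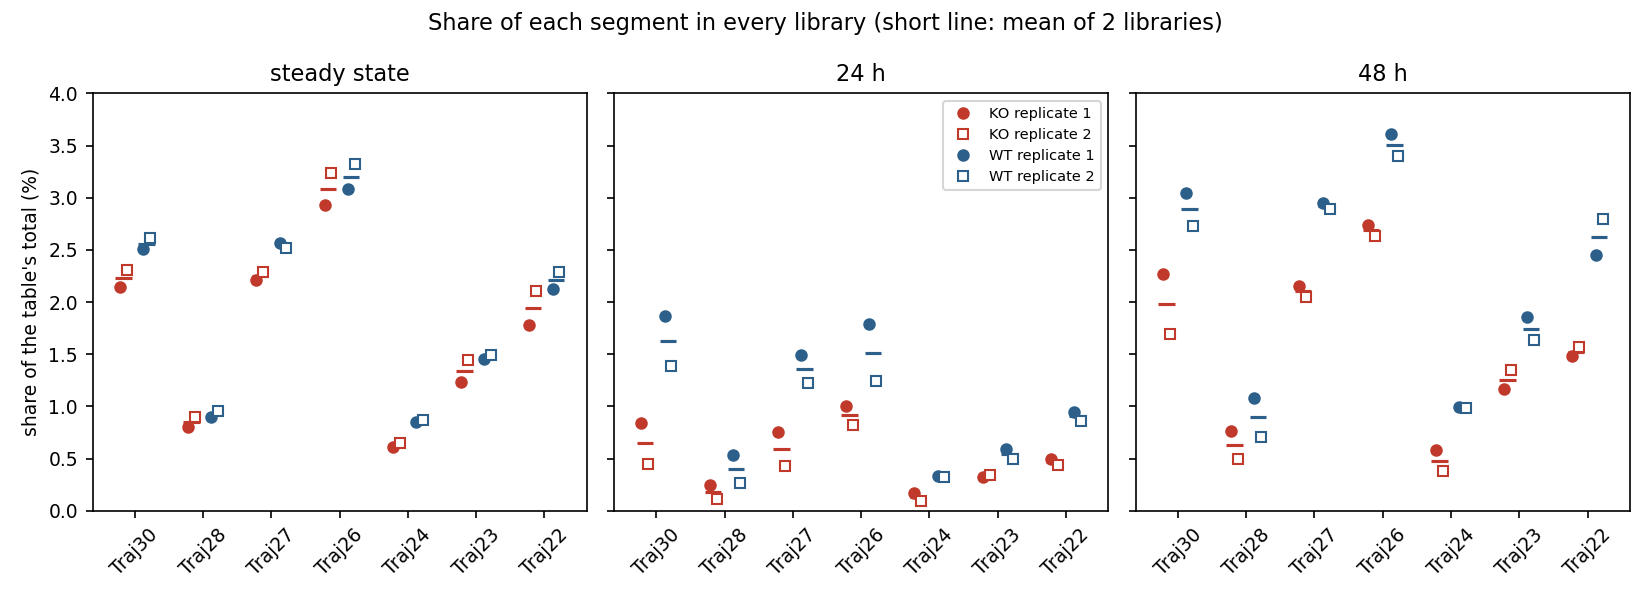
Share of each segment in percent of the table's total (linear axis), with 1 panel per sampling and the segments in 5′ to 3′ order. Points are libraries, KO left of WT within each segment, and short lines mark the mean of 2 libraries. At 24 h all 7 segments lie lower in KO than in WT without overlap, and TRAJ26 is highest in KO at each sampling.

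Summed, the 7 segments took 11.7 and 13.0% of Tcra joins in the KO libraries at steady state, against 13.5 and 14.1% in the WT libraries. At 24 h they took 3.85 and 2.69% in KO, against 7.56 and 5.80% in WT. At 48 h they took 11.2 and 10.2% in KO, against 16.0 and 15.1% in WT. Both KO libraries lay below both WT libraries at each sampling. The KO mean over the WT mean was 0.896 at steady state (12.3 ± 0.872% against 13.8 ± 0.400%), 0.489 at 24 h (3.27 ± 0.818% against 6.68 ± 1.25%) and 0.686 at 48 h (10.7 ± 0.695% against 15.6 ± 0.611%). The differences were -1.44, -3.41 and -4.89 percentage points, so the gap was widest as a ratio at 24 h and widest in points at 48 h.

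**Figure D2:**
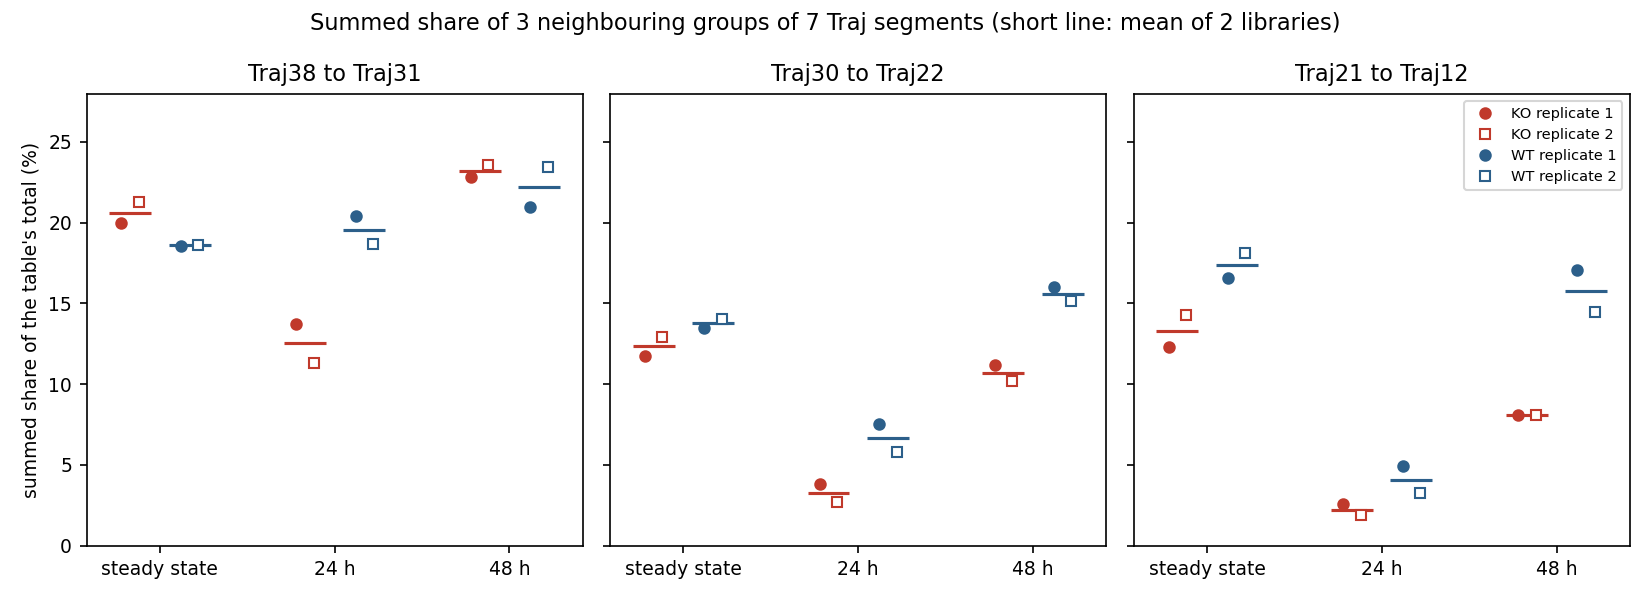
Summed share, in percent of the table's total, of the 7 segments and of the 7 Traj columns on each side (Traj38 to Traj31 and Traj21 to Traj12), by sampling, KO left of WT. Points are libraries and short lines are means of 2 libraries. For the 7 segments every KO library lies below every WT library at each sampling, with means of 3.27% against 6.68% at 24 h.

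Tests used limma (an empirical Bayes linear model) on log2(percent + 0.01) of all 43 Traj columns, with 1 mean for each of the 6 groups, and Benjamini-Hochberg adjustment over the 43 columns with a threshold of 0.05. A log2 difference is KO minus WT on that scale, and the added 0.01 makes it understate the change of low shares.

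At steady state no member passed the test. All 7 had a lower mean in KO, but after centring (described with the 24 h values) 3 of them had differences above 0. TRAJ30 had 2.14 and 2.31% in KO, against 2.51 and 2.61% in WT. TRAJ24 had 0.615 and 0.652% in KO, against 0.850 and 0.866% in WT. TRAJ26 had 2.93 and 3.24% in KO, against 3.09 and 3.32% in WT. The KO and WT libraries of TRAJ30 and TRAJ24 were apart, and those of TRAJ26 overlapped. Both KO libraries lay below both WT libraries for 6 of the 7 segments, where 44.2% of all 43 columns did the same. The log2 differences ran from -0.43 (SE 0.26, limma adjusted p = 0.202) for TRAJ24 to -0.06 (SE 0.18, limma adjusted p = 0.763) for TRAJ26. With limma 0 of 7 fell after adjustment and 0 had an unadjusted p under 0.05, where 16.3% of all columns fell. The median was -0.18 over the 7 and 0.04 over all 43. Without the 4 tables that sum to nearly 2, which are all from later samplings, the shared spread is smaller and 1 of the 7 passed, TRAJ24 (limma adjusted p = 0.00327), where 28 of all 43 columns passed in either direction.

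At 24 h all 7 segments were lower in KO. TRAJ30 had 0.844 and 0.446% in KO, against 1.87 and 1.39% in WT, a ratio of means of 0.396. TRAJ24 had 0.175 and 0.0944% in KO, against 0.335 and 0.321% in WT, a ratio of 0.411. TRAJ22 had 0.492 and 0.441% in KO, against 0.949 and 0.860% in WT, a ratio of 0.516. In each of these 3 both KO libraries lay below both WT libraries. TRAJ27 had 0.758 and 0.429% in KO, against 1.49 and 1.23% in WT. TRAJ26 had 1.01 and 0.822% in KO, against 1.79 and 1.24% in WT. TRAJ23 had 0.327 and 0.346% in KO, against 0.597 and 0.494% in WT. These 3 were likewise lower in both KO libraries, with ratios of 0.437, 0.604 and 0.617. TRAJ28, with 0.244 and 0.111% in KO against 0.535 and 0.267% in WT, was also apart, by a narrow margin between the higher KO and the lower WT library. All 7 thus had both KO libraries below both WT libraries, where 67.4% of the 43 columns did so.

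In the limma fit 7 of 7 fell at 24 h, where 58.1% of all columns fell. The log2 difference was -1.38 (SE 0.27, limma adjusted p = 0.00211) for TRAJ30, -1.23 (SE 0.22, limma adjusted p = 0.00159) for TRAJ27 and -0.94 (SE 0.14, limma adjusted p = 0.00079) for TRAJ22. The smallest changes were those of TRAJ26, at -0.70 (SE 0.18, limma adjusted p = 0.00635), and TRAJ23, at -0.67 (SE 0.15, limma adjusted p = 0.00315). The median was -1.15 over the 7 and -0.66 over all 43. When each library was centred on the mean of its 43 log2 values, the median of all columns moved to -0.13 and that of the 7 to -0.61. On that scale all 7 stayed below 0 and 4 passed (TRAJ30, TRAJ27, TRAJ24 and TRAJ22), while over all columns 8 rose and 8 fell, against 6 that rose and 25 that fell without centring. Without the 4 tables that sum to nearly 2, which leaves 1 library per group at 24 h, the log2 differences ran from -1.14 for TRAJ30 to -0.82 for TRAJ26. TRAJ28 did not pass without replicate 2 of KO or replicate 1 of WT at 24 h (limma adjusted p up to 0.233), and TRAJ26 did not pass without replicate 1 of WT (limma adjusted p = 0.0515).

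At 48 h the 3 most 3′ of the segments were lower in KO by the test. TRAJ24 had 0.580 and 0.383% in KO, against 0.998 and 0.982% in WT, with a log2 difference of -1.05 (SE 0.26, limma adjusted p = 0.00533). TRAJ22 had 1.48 and 1.57% in KO, against 2.45 and 2.79% in WT, with a log2 difference of -0.78 (SE 0.14, limma adjusted p = 0.00106). TRAJ23 had 1.16 and 1.35% in KO, against 1.85 and 1.63% in WT, with a log2 difference of -0.47 (SE 0.15, limma adjusted p = 0.0197). No library of one genotype overlapped the other in these 3. In the KO libraries TRAJ24 stood at 0.486 and TRAJ22 at 0.582 of the WT mean. TRAJ30 had 2.27 and 1.69% in KO, against 3.05 and 2.73% in WT. TRAJ27 had 2.16 and 2.05% in KO, against 2.95 and 2.90% in WT. TRAJ26 had 2.74 and 2.64% in KO, against 3.61 and 3.40% in WT. The KO libraries of TRAJ30, TRAJ27 and TRAJ26 also lay below both WT libraries, but did not pass the test (log2 -0.55, -0.47 and -0.38, limma adjusted p = 0.0993, 0.0884 and 0.088). TRAJ28 overlapped, with 0.770 and 0.501% in KO against 1.08 and 0.708% in WT (log2 -0.49, limma adjusted p = 0.291).

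The count at 48 h was thus 3 of 7, where 37.2% of all columns fell, and 6 of 7 had both KO libraries below both WT libraries, where 46.5% of all columns did. The median was -0.49 over the 7 and -0.04 over all 43, and after centring -0.14 and 0.31. After centring TRAJ24 and TRAJ22 passed and TRAJ23 did not (log2 -0.12, limma adjusted p = 0.463). With the replicate number as a block 7 of 7 fell (limma adjusted p = 0.0120, 0.0123, 0.0319 and 0.0290 for TRAJ30, TRAJ28, TRAJ27 and TRAJ26), where 48.8% of all columns fell. Without the 4 tables that sum to nearly 2, which leaves 1 library per group at 48 h, the log2 differences ran from -0.77 for TRAJ24 to -0.40 for TRAJ26. TRAJ24 did not pass without replicate 2 of KO at 48 h (limma adjusted p = 0.0561), nor TRAJ23 without replicate 1 of KO or of WT at 48 h (limma adjusted p up to 0.130). The count was 5 without either KO library of 24 h, which leaves the 48 h libraries as they are and changes only the shared spread.

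Averaged over the 3 samplings all 7 fell in KO, where 51.2% of the columns fell. The log2 differences were -0.92 (SE 0.15, limma adjusted p = 0.000343) for TRAJ24, -0.71 (SE 0.16, limma adjusted p = 0.00263) for TRAJ30, and -0.63 for both TRAJ27 and TRAJ22. TRAJ28, at -0.59 (SE 0.23, limma adjusted p = 0.0386), lost its call without any 1 of the 4 steady-state libraries, or without replicate 2 of KO or replicate 1 of WT at 24 h or at 48 h (limma adjusted p up to 0.1004). TRAJ23 and TRAJ26 had the smallest changes, -0.43 and -0.38. The median was -0.63 over the 7 and -0.21 over all 43. After centring these were -0.28 and 0.13, and 4 of the 7 passed, the same segments by name as at 24 h (TRAJ30, TRAJ27, TRAJ24 and TRAJ22). Over all 43 columns 12 rose and 22 fell, and after centring 18 rose and 16 fell.

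The share of all 7 segments was higher at 48 h than at 24 h in both genotypes. TRAJ23 at 48 h over 24 h stood at 3.73 in KO and 3.20 in WT, TRAJ24 at 3.58 and 3.02, and TRAJ22 at 3.27 and 2.90. TRAJ30 stood at 3.07 in KO and 1.77 in WT, TRAJ28 at 3.58 and 2.23, TRAJ27 at 3.55 and 2.15, and TRAJ26 at 2.94 and 2.32. The sum of the 7 at 48 h was 3.27 times that at 24 h in KO and 2.33 times in WT. In limma 7 of 7 rose in KO, by log2 1.55 (SE 0.18) for TRAJ26 to 1.87 for TRAJ27 and TRAJ23, with adjusted p of at most 0.00144, where 67.4% of all columns rose. In WT 7 of 7 rose as well, by log2 0.84 (SE 0.27, limma adjusted p = 0.0180) for TRAJ30 to 1.66 (SE 0.15) for TRAJ23, where 51.2% of all columns rose. The medians were 1.79 in KO and 1.23 in WT over the 7, and 1.26 and 0.44 over all 43. After centring, the medians over all columns were 0.43 and -0.21, and 7 members rose in KO and 5 in WT, where 20 and 19 of all 43 columns rose. In WT, TRAJ30 and TRAJ28 did not pass without replicate 2 at 24 h or replicate 1 at 48 h (limma adjusted p up to 0.111 and 0.157).

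Whether the genotype difference itself differed between samplings was tested as an interaction. From steady state to 24 h it widened by log2 -1.17 (SE 0.39, limma adjusted p = 0.0403) for TRAJ30, -1.05 (SE 0.32, limma adjusted p = 0.0281) for TRAJ27 and -0.76 (SE 0.20, limma adjusted p = 0.0213) for TRAJ22. These 3 of 7 passed, where 30.2% of all columns did in that direction. The other members had values of -0.54 to -1.02 and did not pass. With the replicate block 6 passed, all but TRAJ23, where 44.2% of columns did, and after centring 0 passed. The count was 0 without replicate 2 of KO, either WT library at steady state, replicate 2 of KO at 24 h or replicate 1 of WT at 24 h. It was 1 without replicate 1 of KO at steady state, 2 without either WT library of 48 h, 5 without replicate 2 of WT at 24 h and 6 without replicate 1 of KO at 24 h.

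From 24 h to 48 h the difference moved the other way by log2 0.82 for TRAJ30, 0.76 for TRAJ27 and 0.66 for TRAJ28, and by 0.17 to 0.32 for the other 4. In limma 0 of 7 passed and 1 had an unadjusted p under 0.05, where 23.3% of all columns passed in that direction. With the replicate block these 3 passed (limma adjusted p = 0.0216 for TRAJ30, 0.0277 for TRAJ27 and 0.0243 for TRAJ28), where 39.5% of columns did. Without the 4 tables that sum to nearly 2, which leaves 1 library per group at 24 h and at 48 h, the values ran from 0.13 for TRAJ24 to 0.72 for TRAJ30. From steady state to 48 h the values were -0.62 to -0.30. By limma 0 of 7 passed with and without the block, where 0 of all 43 columns passed without it and 2 with it. An unadjusted p under 0.05 was found for 1 of the 7, or 2 with the block.

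The columns on either side differed from each other. At the 5′ border, TRAJ31 had 4.47 and 4.85% in KO against 4.27 and 4.26% in WT at steady state, and 4.93 and 6.10% against 4.96 and 5.40% at 48 h, where the genotypes overlapped (log2 0.08, limma adjusted p = 0.659, but 0.43 and limma adjusted p = 0.0189 after centring). At the 3′ border, TRAJ21 had 1.51 and 1.79% in KO against 2.22 and 2.47% in WT at steady state, and 1.17 and 1.13% against 2.57 and 2.18% at 48 h (log2 -1.04, limma adjusted p = 0.0211). At 24 h both border columns fell in KO, with log2 differences of -0.75 (limma adjusted p = 0.0021) for TRAJ31 and -1.08 (limma adjusted p = 0.0162) for TRAJ21, and neither passed after centring (limma adjusted p = 0.238 and 0.138). At steady state the 7 columns from Traj38 to Traj31 all had both KO libraries above both WT libraries, where 46.5% of all columns did, and of the 7 from Traj21 to Traj12, 6 had both below. At 48 h, 2 of the 7 upstream columns had both above and 5 overlapped, while all 7 downstream columns had both below.

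Over the 3 runs of 7 columns, the median log2 differences were lower toward the 3′ end at steady state and at 48 h but not at 24 h, where the middle run was lowest. For Traj38 to Traj31 they were 0.19 in steady state, -0.66 after 24 h and 0.08 after 48 h. For the 7 segments they were -0.18, -1.15 and -0.49, and for Traj21 to Traj12 they were -0.36, -0.99 and -0.97. At 24 h 6 of the 7 columns before and 5 of the 7 after fell, but 0 and 1 after centring. At 48 h 0 before and 6 after fell, and after centring 5 before rose and 6 after fell. Centring each library shifted the median of all columns from 0.04 to 0.20 at steady state and from -0.04 to 0.31 at 48 h, and at steady state it moved TRAJ28, TRAJ26 and TRAJ23 to 0.03, 0.10 and 0.01. The sum of the 7 segments over the sum of Traj38 to Traj31 was 0.598 ± 0.0155 in KO and 0.741 ± 0.0210 in WT at steady state (SD, n = 2 each). It was 0.259 ± 0.0299 in KO and 0.340 ± 0.0423 in WT at 24 h, and at 48 h it was 0.460 ± 0.0406 in KO and 0.704 ± 0.0832 in WT. The KO ratios lay below the WT ratios at each sampling.

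**Figure D3:**
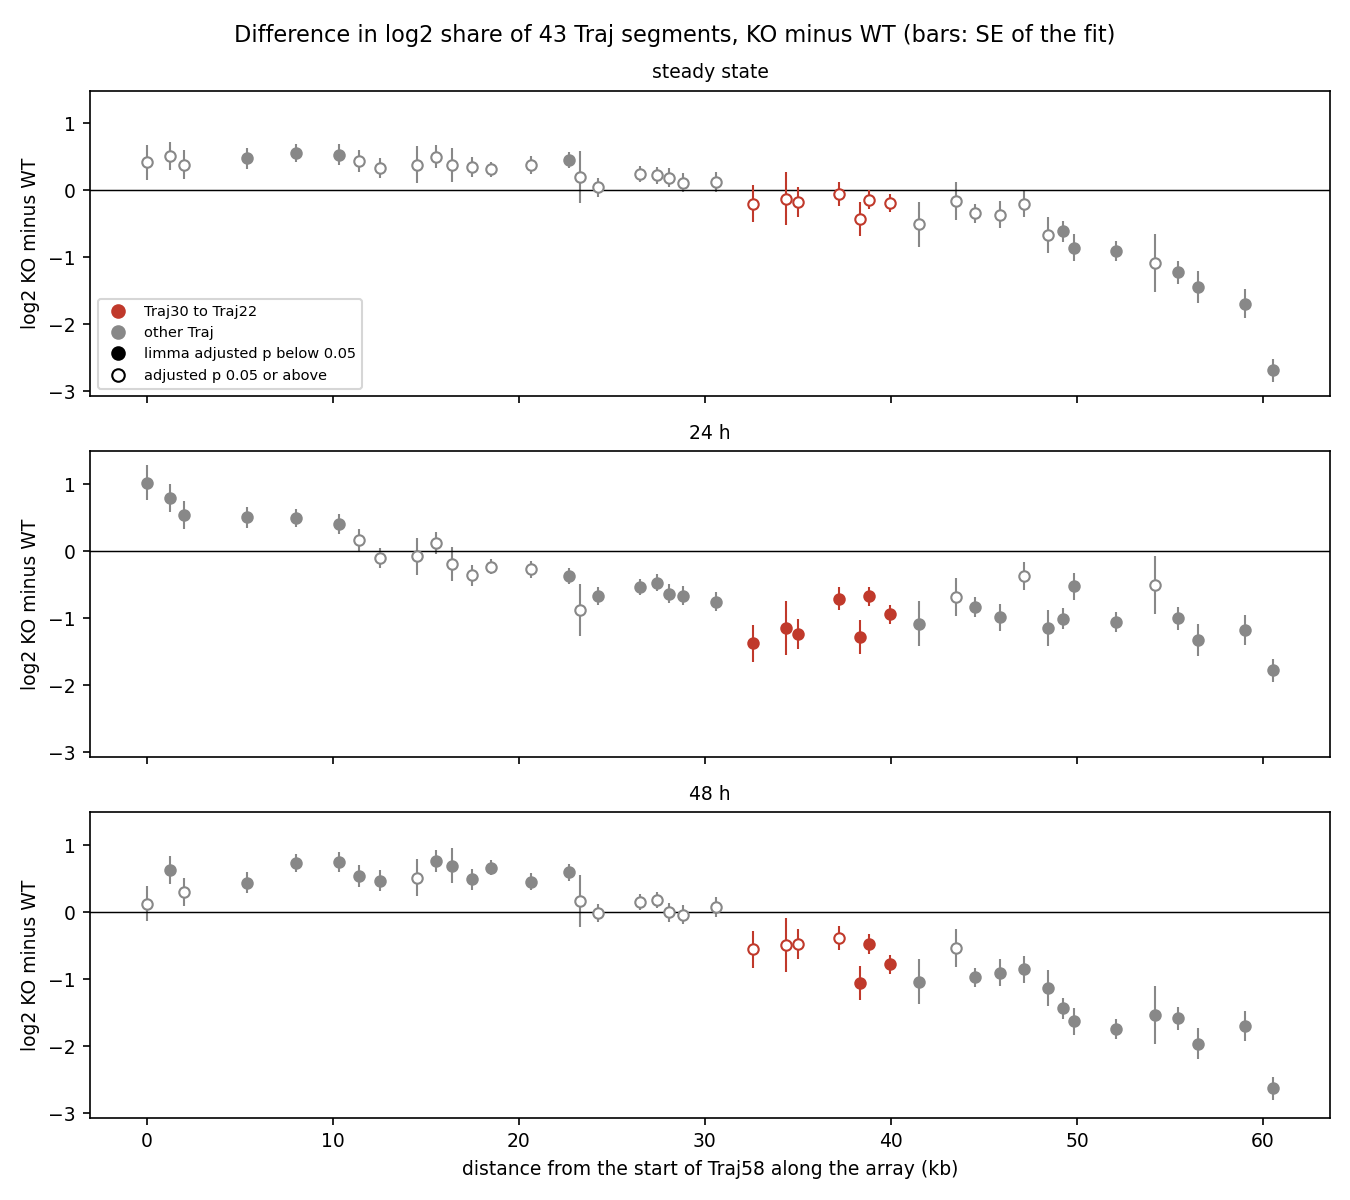
Log2 difference in share, KO minus WT, for all 43 Traj columns against the distance from the start of Traj58 in kb, with 1 panel per sampling, the 7 segments marked and bars for the SE of the fit. At 48 h TRAJ31, just upstream, lies near 0 (0.08), TRAJ26 at -0.38 and TRAJ21, just downstream, at -1.04.

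The 3 other columns whose profile over the 12 libraries was most like the median profile of the 7 were TRAJ17, TRAJ21 and TRAJ18. Their root mean square difference on the log2 scale, after each profile was centred on its own mean, was 0.279, 0.289 and 0.294. All 3 lie downstream of the 7 segments. Among the 7 themselves the measure ran from 0.0136 for TRAJ22 to 0.348 for TRAJ28, so TRAJ28 and TRAJ30 (0.303) were less like the median than these 3 outside columns. The 7 members define that median, so low values among them are no independent measure of likeness.

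Each segment was joined to many Trav partners. Over the 12 libraries 36 (TRAJ24) to 43 (TRAJ26) of the 79 Trav segments shared by all tables made up at least 1% of a member's joins on average, and the 5 most used together held 18.3 to 20.9%. The 79 were ranked from 1, the most distal from the Traj array, to the most proximal, and cut into 26 distal, 26 central and 27 proximal segments. TRAV7-4, in the central zone, was among the top 3 partners of 6 of the 7 members, all but TRAJ26. At steady state it held 4.02 and 4.49% of the joins of the 7 segments in KO, against 3.69 and 4.16% in WT, and these overlapped. These top partners are ranked by the mean over 12 libraries. In each of the 8 libraries with table totals near 1, TRAV7-3 held more of the joins of the 7 segments (4.84 to 5.27%) than TRAV7-4 did (3.39 to 4.49%). TRAV15-2/DV6-2 was among the top 3 for TRAJ28, TRAJ27, TRAJ26 and TRAJ22, and its share was high in the 4 tables that sum to nearly 2. Of the joins of the 7 segments it held 17.5 and 12.2% in replicate 2 of KO and WT at 24 h and 10.9 and 11.7% at 48 h, against 0.391 to 1.15% in the other 8 libraries. In replicate 2 of KO at 24 h only 8 of the 79 Trav segments were listed above 0 with TRAJ28 and with TRAJ24, against 56 and 59 in replicate 1.

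At steady state distal Trav held less of the joins in KO, in the 7 segments and in the rest of the array alike. They held 26.5 and 27.5% of the joins of the 7 segments in KO, against 31.6 and 32.7% in WT. Of the joins of the other Traj columns they held 20.6 and 21.9% in KO, against 27.3 and 28.9% in WT. At 24 h they held 13.1 and 16.2% of the joins of the 7 segments in KO, against 16.4 and 16.8% in WT. At 48 h they held 21.7 and 18.8% in KO, against 31.1 and 28.4% in WT. The KO libraries lay below the WT libraries at all 3 samplings, by a narrow margin at 24 h. Proximal Trav held 32.5 and 29.4% in KO against 27.97 and 24.6% in WT at steady state, 57.6 and 62.4% against 49.1 and 59.6% at 24 h, and 38.9 and 48.7% against 26.8 and 36.6% at 48 h. The genotypes overlapped for proximal Trav at 24 h and were apart at the other samplings. The central zone differed less than the others at steady state (42.1% in KO and 41.6% in WT) and at 48 h (35.9% and 38.6%). At 24 h its means of 25.3 ± 5.61% and 29.1 ± 7.69% lay further apart than the distal means of 14.7 and 16.6%, and its libraries overlapped. Among partners with at least 1% of the joins, those that differed most at steady state were TRAV1, the most distal of all, with 2.03 and 2.73% in KO against 3.42 and 4.34% in WT, and TRAV12-3 (2.27 ± 0.110% against 1.69 ± 0.014%) and TRAV3-3 (2.63 ± 0.109% against 2.04 ± 0.048%) of the proximal zone. TRAV1 at 48 h held 0.699 and 0.293% in KO, against 2.31 and 1.09% in WT, without overlap.

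**Figure D4:**
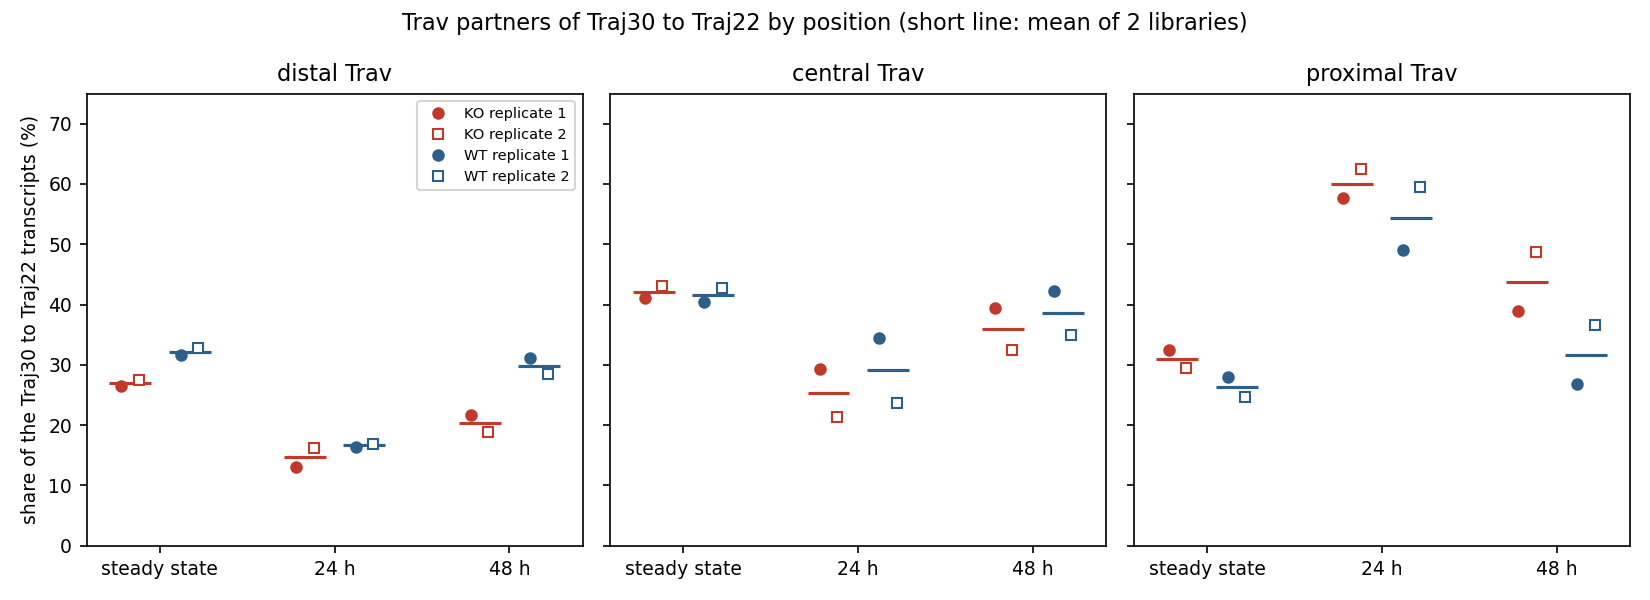
Share of the joins of the 7 segments, in percent, that used distal, central and proximal Trav segments, by sampling, KO left of WT, with 1 panel per zone. Points are libraries and short lines are means of 2. Distal Trav average 20.3% in KO and 29.7% in WT at 48 h.

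Splitting each member's share by Trav zone gave 21 features of the 7 members among 129, tested in limma on the same scale with adjustment over the 129. At steady state 0 of 21 fell after adjustment and 0 had an unadjusted p under 0.05, where 7.75% of the 129 fell. The median log2 difference of the members was -0.41 with distal, -0.16 with central and 0.09 with proximal Trav. Without the 4 tables that sum to nearly 2, 7 of 21 passed, where 74 of the 129 did in either direction.

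At 24 h the fall reached all zones. All 7 members fell with distal Trav, 4 with central Trav (TRAJ30, TRAJ27, TRAJ24 and TRAJ22) and 6 with proximal Trav (all but TRAJ23, limma adjusted p = 0.0706, and 0.0494 with the replicate block), 17 of 21 in all, where 44.2% of the 129 fell. With the replicate block 20 of 21 fell, where 58.9% of the 129 did, with TRAJ26 and TRAJ28 with central Trav added (limma adjusted p = 0.0483 and 0.02996). TRAJ30 with central Trav had 0.241 and 0.0649% of all joins in KO, against 0.626 and 0.395% in WT (log2 -1.89, SE 0.48, limma adjusted p = 0.0111). TRAJ30 with proximal Trav had 0.466 and 0.299% in KO, against 0.912 and 0.771% in WT (log2 -1.15, SE 0.24, limma adjusted p = 0.00855). Both were apart between the genotypes. The count was far lower without replicate 2 of KO or replicate 1 of WT at 24 h. After centring it was 3, where 26 of the 129 passed in either direction. Without the 4 tables that sum to nearly 2, which leaves 1 library per group at 24 h, the log2 differences ran from -1.48 (TRAJ27 with distal Trav) to -0.575 (TRAJ24 with proximal Trav).

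At 48 h the joins that fell were those with distal and central Trav. TRAJ24 with distal Trav had 0.0978 and 0.0294% in KO, against 0.308 and 0.321% in WT (log2 -2.32, SE 0.37, limma adjusted p = 0.000631). The 0.0294% is from replicate 2, where TRAJ24 was listed above 0 with 18 of the 79 Trav segments. Without the 4 tables that sum to nearly 2 the log2 difference was -1.56. TRAJ22 with distal Trav had 0.325 and 0.280% in KO, against 0.789 and 0.661% in WT (log2 -1.23, SE 0.20, limma adjusted p = 0.000693). TRAJ26 with distal Trav had 0.588 and 0.436% in KO, against 1.09 and 1.03% in WT (log2 -1.05, SE 0.23, limma adjusted p = 0.00538). In all 3 the KO values lay well below the WT values. TRAJ30, TRAJ27 and TRAJ23 also fell with distal Trav, TRAJ28 did not pass (log2 -0.91, limma adjusted p = 0.0616, and 0.00158 with the replicate block), and with central Trav TRAJ24 and TRAJ22 fell (log2 -1.26 and -0.88). With proximal Trav 0 of 7 fell, with log2 differences of -0.29 to 0.21 and a median of -0.04. Without the 4 tables that sum to nearly 2 these differences were -0.09 to 0.11. TRAJ26 with proximal Trav, for example, had 1.08 and 1.40% in KO, against 1.01 and 1.34% in WT, and the genotypes overlapped. The proximal TRAV15-2/DV6-2 held 11.1% of the TRAJ26 joins in replicate 2 of KO at 48 h and 17.0% in replicate 2 of WT. In replicate 1 it held 0.532 and 0.460%. The total was 8 of 21, where 30.2% of the 129 fell, and 11 with the replicate block, where 36.4% did, with TRAJ27 and TRAJ28 with central Trav added as well (limma adjusted p = 0.0307 and 0.00738). Over all 43 columns 20 fell with distal, 13 with central and 6 with proximal Trav. Without the 4 tables that sum to nearly 2, 1 library per group is left at 48 h. The log2 differences there ran from -1.56 (TRAJ24) to -0.83 (TRAJ28) with distal Trav and from -0.83 (TRAJ24) to -0.45 (TRAJ26) with central Trav. The total of 8 was lower without replicate 2 of KO at 48 h. After centring it was 5, where 71 of the 129 passed in either direction.

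Averaged over the samplings 12 of 21 fell, where 39.5% of the 129 did. All 7 fell with distal Trav, by log2 -0.74 (SE 0.13) for TRAJ23 to -1.43 (SE 0.21, limma adjusted p = 0.000228) for TRAJ24. With central Trav TRAJ30, TRAJ27, TRAJ24 and TRAJ22 fell, and with proximal Trav 1 did, TRAJ30 (log2 -0.44, SE 0.14, limma adjusted p = 0.0221). TRAJ30 did not pass with central or with proximal Trav when some single libraries were left out (limma adjusted p up to 0.0707 and 0.0599 without 1 of 5 libraries each, replicate 1 of WT at 24 h and replicate 2 of KO at 48 h in both). With the replicate block TRAJ28 with central Trav and TRAJ24 and TRAJ22 with proximal Trav passed too (limma adjusted p = 0.00494, 0.0485 and 0.0406), 15 of 21 in all, where 47.3% of the 129 fell. The difference between zones was not itself tested. After centring, TRAJ28, TRAJ26, TRAJ23 and TRAJ22 with proximal Trav and TRAJ26 with central Trav had values above 0.

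The mean rank of a member's Trav partners gives the same joins as 1 number, a higher rank standing for more proximal partners. TRAJ24 had mean ranks of 39.8 and 38.1 in KO against 36.6 and 34.1 in WT at steady state, 51.8 and 48.2 against 47.3 and 49.4 at 24 h, and 44.9 and 52.0 against 36.3 and 37.1 at 48 h. In replicate 2 of KO, TRAJ24 was listed above 0 with 8 of the 79 Trav segments at 24 h and with 18 at 48 h. TRAJ23 had 41.2 and 41.3 in KO at 48 h, against 35.5 and 35.1 in WT. The genotypes overlapped for TRAJ24 at 24 h and were apart at the other samplings, and they were apart for TRAJ23 at 48 h. Averaged over the samplings the partners were more proximal in KO for 6 of 7 members, where 39.5% of the 43 columns passed in that direction. The differences were 5.65 ranks (SE 1.23, limma adjusted p = 0.00305) for TRAJ24, 4.10 ranks (SE 0.84, limma adjusted p = 0.00202) for TRAJ23 and 3.26 to 3.71 ranks for TRAJ30, TRAJ28, TRAJ26 and TRAJ22. TRAJ27 had 2.09 ranks (SE 1.25, limma adjusted p = 0.181). Without the 4 tables that sum to nearly 2 TRAJ27 had 4.18 ranks, within the 3.42 to 5.54 ranks of the 7 members. The median was 3.62 ranks over the 7 and 2.89 over all 43. With the median in place of the mean rank 4 of 7 passed (TRAJ26, TRAJ24, TRAJ23 and TRAJ22), where 16 of 43 columns did. TRAJ28 did not pass without any 1 of the 4 steady-state libraries, replicate 1 of WT at 24 h, replicate 2 of KO at 48 h or replicate 1 of WT at 48 h (limma adjusted p up to 0.127). TRAJ22 did not pass either (limma adjusted p up to 0.0673), and the count was 4, without replicate 1 of KO at steady state, replicate 2 of WT at steady state or replicate 1 of WT at 24 h.

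Between 24 h and 48 h the partners moved to more distal Trav in WT for 7 of 7 members, by -8.54 ranks for TRAJ28 to -11.65 ranks for TRAJ24, where 76.7% of the 43 columns passed in that direction. In KO 5 of 7 passed, where 55.8% of columns did. TRAJ23 moved by -8.47 ranks, TRAJ22 by -7.38, TRAJ26 by -6.86, TRAJ27 by -5.68 and TRAJ30 by -5.64. TRAJ28 at -3.22 ranks (limma adjusted p = 0.239) and TRAJ24 at -1.52 ranks (limma adjusted p = 0.567) did not pass in KO. With the replicate block TRAJ27 did not pass in KO (limma adjusted p = 0.0636). In KO, TRAJ27 did not pass without replicate 1 at 24 h or either WT library at steady state, and TRAJ30 did not pass without replicate 2 at 24 h. In WT, TRAJ28 did not pass without replicate 2 at 24 h (limma adjusted p = 0.0514). The KO count was lower without replicate 1 of KO at 48 h. Without the 4 tables that sum to nearly 2, which leaves 1 library per group at 24 h and at 48 h, the KO moves ran from -9.07 ranks for TRAJ27 to -6.11 ranks for TRAJ30. Whether the move differed between the genotypes was not tested.

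Within every library the 7 segments had a lower mean partner rank than the other Traj columns together, by -6.64 to -3.32 ranks. In replicate 1 of KO at 24 h distal Trav held 13.1% of the joins of the 7 segments, against 13.8% in the other columns. Central Trav held 29.2 and 22.4% there. The 7 segments had a mean rank of 39.6 ± 0.785 in KO and 36.8 ± 0.892 in WT at steady state (SD, n = 2 each). At 24 h it was 50.9 ± 0.0313 in KO and 48.9 ± 1.96 in WT, and at 48 h it was 44.4 ± 1.96 in KO and 38.9 ± 2.25 in WT. The other columns averaged 46.0 in KO and 41.8 in WT at steady state, 54.2 in KO and 53.0 in WT at 24 h, and 49.4 in KO and 45.03 in WT at 48 h. Of the border columns at steady state, TRAJ31 had 42.2 in KO and 40.2 in WT, and TRAJ21 had 37.2 and 34.3. The 7 segments lie in the 3′ part of the array, and this is a description of position, with no test.

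**Figure D5:**
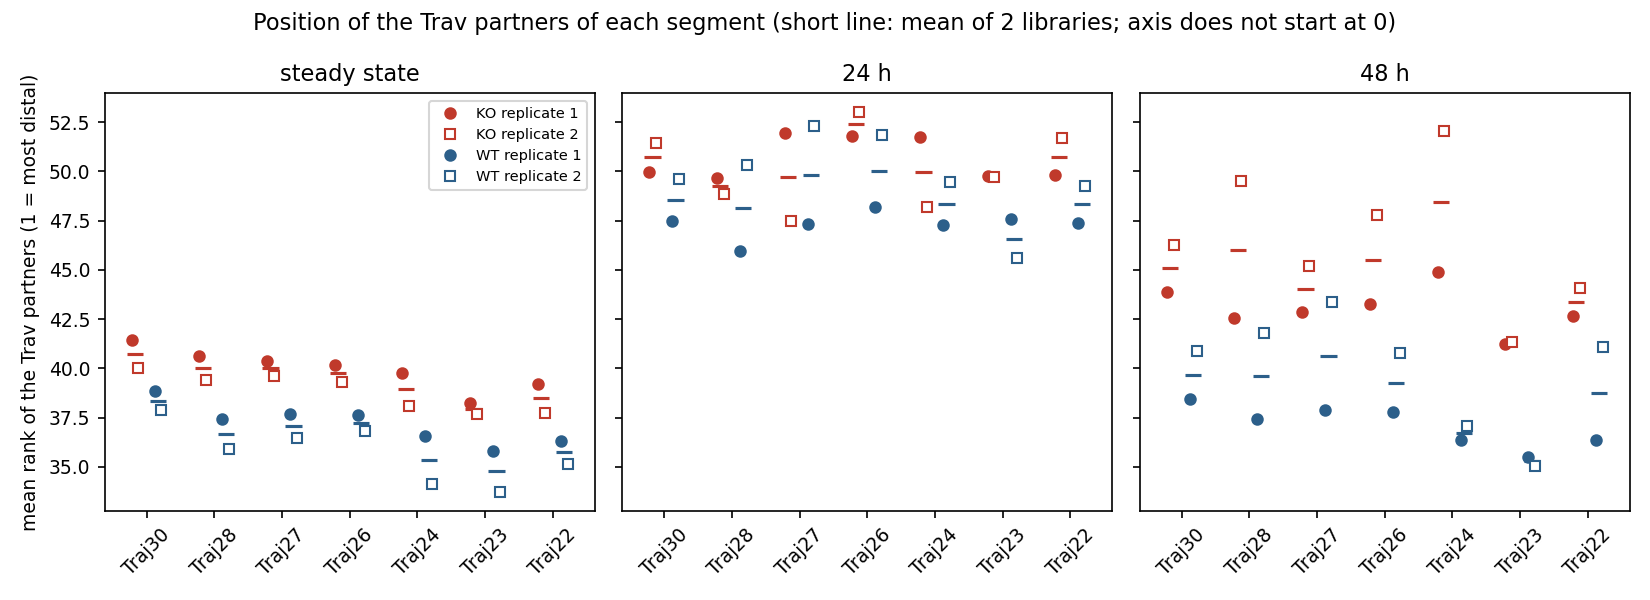
Mean rank of the Trav partners of each segment (1 is the most distal of 79, higher is more proximal) by sampling, KO left of WT. Points are libraries, short lines are means of 2, and the axis does not start at 0. At 48 h TRAJ24 has ranks of 44.9 and 52.0 in KO and 36.3 and 37.1 in WT. The rank of 52.0 rests on 18 Trav segments listed above 0, against 75 for that of 44.9.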

How the data were processed

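Tcra transcripts of 12 libraries were deposited as 1 table each, with Trav rows and 43 Traj columns. The values are fractions, as deposited by the authors. The aligner, the genome build and the unit counted (reads or molecules) are not given in the labels or files used here. Blank rows (12 in all) were dropped, no 2 tables were identical, and each value was divided by its table's own total. Depth is unknown, so the precision of a share is known only from the spread of 2 libraries.

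Shares of all 43 Traj columns, of 129 Traj by Trav zone features and mean ranks of Trav partners were fitted with limma 3.58.1 in R 4.3.3, on log2(percent + 0.01) for shares, with 1 mean per group, no covariate, and Benjamini-Hochberg adjustment at 0.05 (6 residual degrees of freedom). Groups came from the labels. Of 85 Trav segments, 79 were in every table and 77 of these had a GENCODE M21 (GRCm38) position. Sums, ratios and figures were made in Python 3.11.15 with pandas 2.3.3 and matplotlib 3.10.9. On simulated data for the averaged contrast, a log2 change of 0.5 was called in 83.3% of changed share features and 54.6% of changed zone features, and one of 1.0 in 97.8% and 92.1%. The simulated noise was independent, with the same spread in each library and no deviation shared by replicate number. These rates may therefore not hold for the deposited libraries.

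The members, lists and tests were chosen with earlier results of these data known. The text names the 7 members in every comparison, the columns TRAJ31 and TRAJ21 at the borders, the 3 columns most like the members, the top 3 Trav partners of each member and, for all members together, the 5 top partners and the 3 largest rises and falls at steady state.

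The replicate block grouped libraries by replicate number, and the labels do not say what links libraries of the same number. At 24 h and 48 h that number also separates the tables with totals near 1 from the others, so the block cannot tell these apart. Deviations from the group means correlated between KO and WT over the 43 columns with r = 0.948 for the steady-state libraries, 0.666 for those of 24 h and 0.415 for those of 48 h, and between 24 h and 48 h with r = 0.499 in KO and 0.514 in WT. The fit without the block is the one reported, and the blocked value stands beside it where a call changed. Alternatives were the pseudocount, a filter on low shares, rescaling to the shared Trav segments, centring, the replicate block, 8 libraries with totals near 1, the median rank and each library left out.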

Additional observations from a re-analysis of the deposited data

Results flagged for a closer look

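For 3 of the 7 segments the KO minus WT difference at 24 h differed from that at steady state by a test of the difference itself, an interaction in the limma fit over all 43 Traj columns. The value was -1.17 on the log2 scale for TRAJ30 (limma adjusted p = 0.0403), -1.05 for TRAJ27 (limma adjusted p = 0.0281) and -0.76 for TRAJ22 (limma adjusted p = 0.0213). In TRAJ30 both KO libraries lay below both WT libraries at steady state and at 24 h, with a KO over WT ratio of means of 0.870 and 0.396. In TRAJ27 the ratios were 0.885 and 0.437, and in TRAJ22 they were 0.881 and 0.516. None of the 3 passed after centring, and all 3 calls were lost when some single libraries were left out. Over all 43 columns 30.2% passed in that direction without centring. Among the 7 columns from Traj38 to Traj31, 6 did so, and among the 7 from Traj21 to Traj12, 0 did.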

How the results depend on the processing

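Among 1911 values of single segments under the alternatives, 1758 kept their direction and their side of the threshold, 53 newly passed, 83 no longer passed and 17 changed sign. The pseudocount, the filter on low shares and the rescaling to shared Trav segments changed no count of calls of whole Traj shares among the 7. By Trav zone, the pseudocount of 0.1 gave 13 at 24 h and 10 at 48 h, where 48 and 62 of the 129 passed in either direction. That of 0.001 gave 6 at 48 h, where 45 of the 129 passed.

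Centring each library gave counts of 4 at 24 h and 4 for the average, where 16 and 34 of all 43 columns passed in either direction. It gave 0 for the change of the difference from steady state to 24 h, where 1 of 43 passed. By Trav zone it gave 3 at 24 h and 5 at 48 h, where 26 and 71 of the 129 passed. On that scale the steady-state difference changed sign for TRAJ28 (0.0269), TRAJ26 (0.0956) and TRAJ23 (0.0138). TRAJ22 changed sign for the 24 h to 48 h interaction (-0.0170). In the average by zone, TRAJ28 proximal became 0.0882, TRAJ26 central 0.0321, TRAJ26 proximal 0.22, TRAJ23 proximal 0.29 and TRAJ22 proximal 0.0475. These sign changes follow from the scale itself. Centring takes the same amount off every segment of a library, so it shifts a given contrast equally for all segments. Why the library means differ was not tested.

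The replicate block gave 7 at 48 h, where 34 of all 43 columns passed in either direction. It gave 6 for the interaction from steady state to 24 h and 3 for that from 24 h to 48 h, where 20 and 23 of 43 passed. It changed no other call of a whole Traj share among the 7. By zone it gave 20 at 24 h, 11 at 48 h and 15 for the average, where 89, 74 and 91 of the 129 passed. The median partner rank gave 4 for the average, 5 in KO and 7 in WT, where 16, 16 and 27 of 43 columns passed. The 8 libraries with totals near 1 gave 1 at steady state, 7 at 48 h, 6 and 2 for these interactions, and by zone 7 at steady state and 14 at 48 h. That fit has 1 library per group at 24 h and 48 h and 2 residual degrees of freedom, so a lone library is assumed to vary like the steady-state pairs.

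Leaving out 1 library at a time, counts of share calls ranged from 0 to 0 at steady state, 5 to 7 at 24 h, 2 to 5 at 48 h, 6 to 7 for the average, 7 to 7 for 48 h over 24 h in KO and 5 to 7 in WT. They ranged from 0 to 6 for the interaction to 24 h, 0 to 2 for that to 48 h and 0 to 0 from steady state to 48 h. By zone they ranged from 0 to 0, 2 to 17, 5 to 9 and 10 to 15 for the average. For ranks they ranged from 4 to 7 for the average, 2 to 7 in KO and 6 to 7 in WT. The summed difference ranged from -2.05 to -0.821 points at steady state, -4.29 to -2.53 at 24 h and -5.39 to -4.40 at 48 h.

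Single values also changed sign when a library was left out. For TRAJ26 at steady state they ranged from -0.128 to 0.0179 (the second without replicate 1 of KO), and for TRAJ24 in the 24 h to 48 h interaction from -0.18 (without replicate 2 of KO at 24 h) to 0.641, with -0.0652 without replicate 1 of KO at 48 h and -0.0388 with a pseudocount of 0.1. For TRAJ23 proximal in the average they ranged from -0.114 to 0.00756 (without replicate 1 of WT at steady state). In the KO rank change from 24 h to 48 h, TRAJ28 ranged from -6.70 to 0.25 (without replicate 1 at 48 h) and TRAJ24 from -5.09 to 2.05 (without replicate 1 at 48 h), with 0.25 without replicate 1 at 24 h.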

Other observations

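Trav segments with a second name as delta segments (the dv names) held 9.01 to 13.3% of the joins of the 7 segments in the 8 tables whose fractions sum to nearly 1, and 22.8 to 34.7% in the 4 tables that sum to nearly 2. Among the partners of the 7 segments at steady state, TRAV13-1 held 3.13 ± 0.136% in KO and 2.64 ± 0.008% in WT, while TRAV13D-1 held 2.00 ± 0.265% in KO and 2.57 ± 0.156% in WT (SD, n = 2 each, no test). TRAV7-3 held 5.27 and 5.22% in KO and 4.87 and 5.27% in WT at steady state, with overlap, and 0.429 to 2.05% in the 4 tables that sum to nearly 2. TRAV4D-4, in the central zone, held 1.76 ± 0.0917% in KO and 2.19 ± 0.309% in WT at steady state. TRAV14-1 and TRAV4-3 of the proximal zone held 3.25 ± 0.196% and 2.83 ± 0.303% in KO, and 3.20 ± 0.0835% and 2.41 ± 0.157% in WT.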
